A study of Mus musculus with 44 samples.

Results

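The E13.5 colon comparison set p53-null extraembryonic endoderm cells (exColon, 3 libraries) against wild-type embryonic endoderm cells (emColon, 3 libraries), which together make up 6 of the 44 RNA-seq libraries of the series. The libraries were chosen by their labels, which give tissue, stage, sorted colour and genotype, and no measured value entered the choice. Mouse embryos were built by aggregating a morula that carries mCherry with embryonic stem cells that carry GFP, so that mCherry followed the extraembryonic lineage and GFP the embryo proper. Other libraries of the series come from earlier stages and from E13.5 small intestine.

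All 6 libraries carry the same strain label, in which the morula is mCherry+ (CD1/G4) and the stem cells joined to it are GFP+ mESCs (G4), and all are E13.5 colon endoderm sorted as EPCAM+. exColon cells were EPCAM+ mCherry+ with the genotype Trp53 KO. Their host zygotes were electroporated with Cas9 and 3 guides against Trp53 exons, so each embryo carries its own edited alleles and can be mosaic. emColon cells were EPCAM+ GFP+ with the genotype WT and descend from the F1G4 stem cell line, from which clones expressing GFP were picked. Origin, genotype, strain background and reporter therefore change together between exColon and emColon, and their shares in any difference cannot be told apart. The design holds no wild-type extraembryonic colon and no p53-null embryonic colon. The libraries were made from few sorted cells each of individual embryos, taken only where mCherry was restricted to the gut. At E9.5, the hindgut libraries used for comparison were exHindgut (EPCAM+ mCherry+, labelled WT, 4 libraries) and emHindgut (EPCAM+ sorted as dual GFP and low mCherry, labelled WT, 4 libraries), from pooled embryos. At E13.5, the small intestine libraries were exSI (mCherry+, Trp53 KO, 3 libraries) and emSI (GFP+, WT, 3 libraries).

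As background, visceral endoderm arises from the primitive endoderm, covers the early embryo, secretes carrier proteins such as alpha-fetoprotein, and mixes with epiblast-derived definitive endoderm when the gut tube forms. The transcription factor p53 activates genes for cell cycle arrest (Cdkn1a, Ccng1), feedback (Mdm2), apoptosis (Bax, Fas, Eda2r) and repair, and its loss allows cells to persist that p53 would otherwise remove. Extraembryonic lineages carry less DNA methylation than the embryo, and germline genes whose promoters are methylated in the embryo, many of them on the X chromosome, can be transcribed there.

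Between 10382 and 12115 genes passed 1 TPM in each colon library, mitochondrial genes took 2.63 to 5.12% of TPM, and sequencing depth is unknown because no counts were used. The reporters matched the labels in every colon library. mCherry stood at 2624, 3306 and 6081 TPM (transcript abundance scaled by gene length and by library total, the deposited unit) in exColon and was listed at 0 in all 3 emColon libraries. EGFP was listed at 0 in exColon and stood at 486, 440.1 and 522 TPM in emColon. The targeted gene Trp53 (chr11:69580359-69591873, + strand, mm10) had 42.5, 124 and 122 TPM in exColon and 151, 226 and 245 TPM in emColon. The groups did not overlap, and the first exColon library was the lowest of the 6. Trp53 differed by -1.22 on the log2(TPM + 1) scale (SE 0.42, 95% interval -2.13 to -0.30), with an adjusted p of 0.375 in limma's moderated test. Edited alleles can keep a transcript, so the level of Trp53 mRNA does not measure p53 protein. At E9.5, where both groups are labelled WT, Trp53 ranged from 209 to 259 TPM in exHindgut and from 227 to 256 TPM in emHindgut.

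Epithelial identity was shared by both colon groups. Epcam, the sorted surface protein, had 848, 1180 and 1113 TPM in exColon and 845, 958 and 762 TPM in emColon. Cdx2, the intestinal homeobox factor, had 132, 179 and 290.3 TPM in exColon and 261, 209.7 and 180.3 TPM in emColon. Lists of markers of other cell types differed in level. The blood list (10 markers, 7 at 0 in all 6 libraries) summed to 0.205 to 11.0 TPM in exColon and 0 to 0.158 TPM in emColon, the highest value being Hbb-y at 11.0 TPM in the second exColon library. The endothelium list stayed at or below 0.447 TPM in sum. The mesenchyme list summed to 24.1 to 65.4 TPM in exColon and 106 to 236 TPM in emColon. Vim, the intermediate filament of mesenchymal cells, had 10.6, 42.1 and 59.5 TPM in exColon and 134, 88.0 and 154 TPM in emColon. Col1a1 did not pass 0.366 TPM in any library, and the highest Col3a1 value was 10.7 TPM in the first emColon library. The neural crest list summed to 4.12 to 8.00 TPM in exColon and 1.80 to 15.9 TPM in emColon, with Sox10 at 0 in all 6. The urothelium and surface ectoderm list was higher, summing to 52.7 to 129 TPM in exColon and 59.6 to 103 TPM in emColon, with Upk1a, a urothelial plaque protein, at 52.7 TPM or above in all 6 libraries. The keratin Krt5 and Trp63, markers of stratified epithelium, stood at 16.2 and 9.03 TPM in the first exColon library and at 0 in emColon. The mesothelium list summed to 57.7 TPM in the first exColon library and 79.2 TPM in the second emColon library, nearly all of it Msln, and stayed at or below 11.0 TPM in the other 4. The part of such cells in the results was not tested. In bulk libraries, fewer cells of a type and less RNA per cell cannot be told apart.

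Sex-linked genes separated the groups. Eif2s3y, a Y-linked translation factor, had 97.8, 98.3 and 119 TPM in exColon and was listed at 0 in emColon. Its log2 difference was 6.72 (SE 0.72), with a limma adjusted p of 0.00132 in a fit over all gene types. Xist, the RNA that coats the inactive X chromosome, was at or below 1.37 TPM in exColon and at 0 in emColon, whereas exHindgut had 75.004, 42.4, 59.0 and 47.6 TPM. All 3 exColon libraries thus had Y-linked transcripts and close to no Xist, whereas the pooled exHindgut libraries had Xist in all 4 and Eif2s3y in 3 of 4 (0, 26.8, 14.9 and 28.1 TPM). The study describes the GFP+ stem cell line as male. In emColon the Y-linked gene Uty was listed at 0, 0 and 2.31 TPM, Kdm5d did not pass 0.000886 TPM, and Ddx3y, which resembles its X-linked partner Ddx3x, had 0, 5.19 and 2.36 TPM, so Y-linked transcripts were low or at 0 in those libraries.

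**Figure D1:**
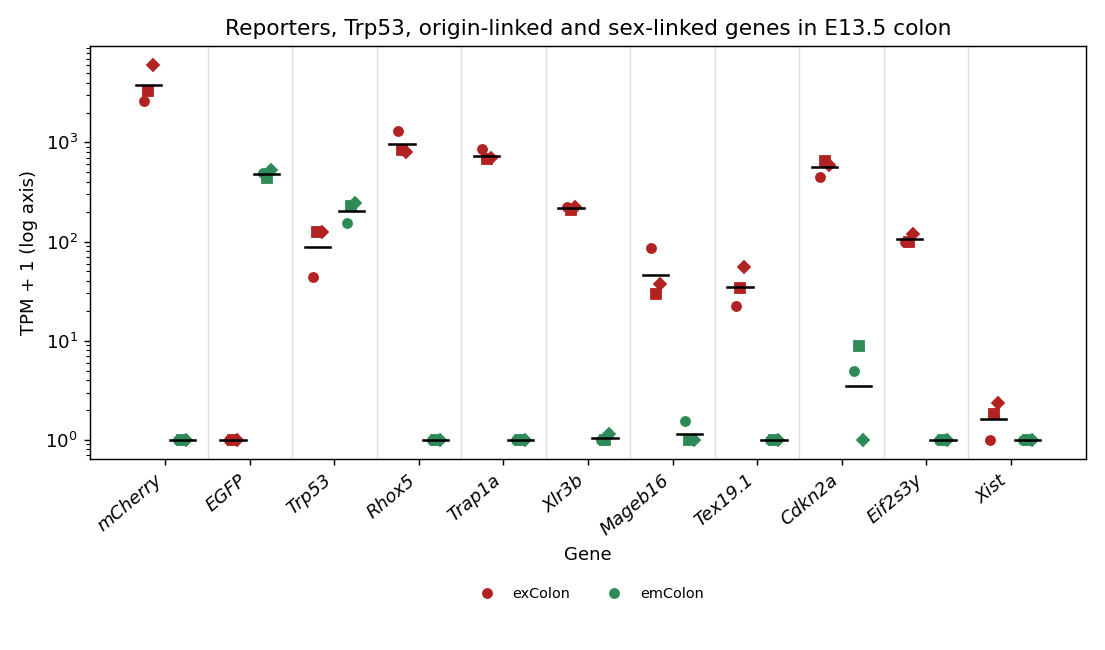
TPM + 1 on a log axis for the reporters, Trp53 and genes linked to origin or sex, with 1 point for each of the 3 exColon (red) and 3 emColon (green) libraries and a bar at the mean of the log values. Rhox5 and Trap1a lie between 672 and 1307 TPM in exColon and at 0 in emColon, while the Trp53 values of the groups lie closer together.

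The comparison of exColon with emColon asks how descendants of extraembryonic cells that lack p53 differ from their embryonic neighbours after both have formed colon epithelium. Most genes of the epithelium were not called different, and the calls included 12 X-linked genes of germline families and Cdkn2a. A gene that was not called is not thereby shown to be alike in both groups. In simulated colon data only 0, 28, 26 and 54% of genes changed by 1, 2, 3 and 4 (log2) were called. Of 11167 protein-coding genes above 1 TPM in at least 3 of the 6 libraries, 30 were called (0.269%), at a limma adjusted p under 0.05 and an absolute log2 difference above 1. Of these, 26 were higher (0.233%) and 4 lower (0.0358%) in exColon. Of the 26 that rose, 14 were listed at 0 in all 3 emColon libraries, so no fold is given for them. Such genes passed the filter only through exColon, so they could not have been called lower. All 30 called genes had non-overlapping groups, against 16.0% of all genes tested. By class, the calls were 12 genes of the X-linked Xlr, Rhox and Mage families, 3 other X-linked genes, 10 autosomal genes that rose, 3 autosomal genes that fell, and both reporters. Among X-linked genes, 15 of 389 were called (3.86%), against 15 of 10778 genes elsewhere (0.139%). Outside those families 3 of 374 X-linked genes were called (0.802%).

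The median log2 difference over all genes tested was 0.227 rather than 0, and 62.0% of genes lay above 0. Rescaling by median-ratio size factors moved that median to 0.0529, so list medians are given below relative to the median of all genes. Leaving out 1 library with the genes held fixed left 14, 12 and 12 calls without exColon replicates 1, 2 and 3 in turn, and 21, 20 and 19 without the corresponding emColon library. Of the 30 calls 8 were kept in every setting with all libraries and, with the genes held fixed, without any 1 library. They were mCherry, EGFP, Rhox5, Rhox6, Trap1a, Xlr3b, Xlr5a and Xlr5b. The other 22 lost the call in at least 1 of these fits. With the filter applied anew, 5, 4 and 2 of the 30 were kept without exColon replicates 1, 2 and 3 in turn.

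**Figure D2:**
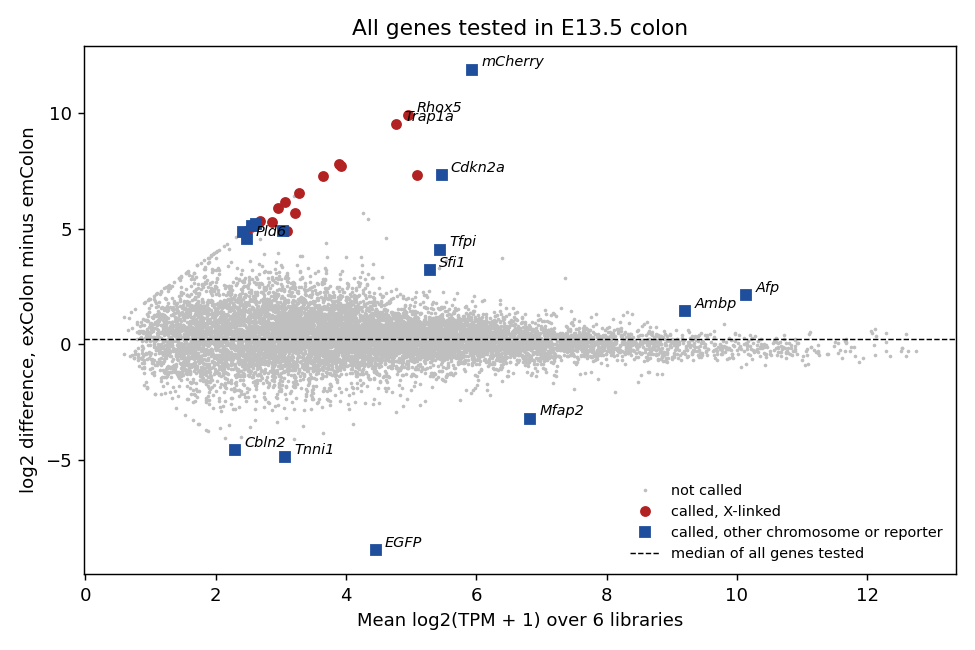
Each point is 1 of the 11167 genes tested, with the mean log2(TPM + 1) over the 6 libraries on the horizontal axis and the log2 difference, exColon minus emColon, on the vertical axis. Red circles are the 15 called X-linked genes, blue squares the 15 other calls, and the dashed line is the median of all genes at 0.227.

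X-linked germline and reproductive genes held the calls with the greatest differences apart from the reporters. Rhox5 (chrX:37804842-37808876, + strand), a homeobox gene of the reproductive cluster, had 1307, 844 and 793 TPM in exColon and 0 in emColon. Its log2 difference was 9.90 (SE 0.48, adjusted p 9.6e-07). Trap1a (chrX:139333683-139338169, + strand), which encodes a tumour rejection antigen, had 852, 672 and 694 TPM in exColon and 0 in emColon, a log2 difference of 9.52 (SE 0.50, adjusted p 1.37e-06). Both genes were therefore among the abundant transcripts of every exColon library and were not detected in any emColon library. Rhox6, the neighbour of Rhox5, had 203, 199 and 95.8 TPM in exColon and 0 in emColon (log2 difference 7.30, SE 0.71, adjusted p 0.000475). Mageb16, a member of the melanoma antigen family, had 84.2, 28.7 and 36.5 TPM in exColon and at most 0.538 TPM in emColon (log2 difference 5.30, SE 0.83, adjusted p 0.0245).

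The Xlr cluster, whose genes encode relatives of synaptonemal complex proteins, rose in all 9 members tested. Xlr3a had 431, 352 and 516 TPM in exColon and 0.711, 0 and 10.5 TPM in emColon. Xlr3b had 224, 207 and 223 TPM in exColon and at most 0.146 TPM in emColon. Xlr5a had 188, 320.4 and 180.3 TPM in exColon and 0 in emColon. Over the 9 genes the log2 differences ran from 4.92 (Xlr4a) to 7.80 (Xlr5a). The Xlr copies are near identical and share reads, so the division of TPM among them is uncertain. Of the 29 family members 15 could be tested and 12 were called, with a median 5.68 above that of all genes, where 0.233% of genes were called higher. Members at or near 0 in emColon passed the filter only where all 3 exColon libraries were above 1 TPM. Their direction, and much of these counts and of the median, was therefore set by the filter. The 12 calls became 6, 7 and 6 without exColon replicates 1, 2 and 3 in turn with the genes held fixed, 7 with a pseudocount of 0.1 and 5 with no filter on low values. A further 10 were at 0 in all 6 libraries. The 3 tested members that were not called, Maged1, Maged2 and Mageh1, belong to broadly expressed Mage branches and had values such as 259.7, 134 and 213 TPM in exColon against 217, 150.0 and 182 TPM in emColon for Maged1.

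Germline genes beyond the X chromosome were fewer and lower. Tex19.1 (chr11:121146143-121148319, + strand), which restrains transposons in germ cells and placenta, had 21.4, 33.1 and 53.8 TPM in exColon and 0 in emColon (log2 difference 5.12, SE 0.82, adjusted p 0.0281). Pld6 (chr11:59783897-59787645, - strand), a mitochondrial endonuclease of piRNA biogenesis, had 30.0, 21.8 and 26.7 TPM in exColon and at most 0.281 TPM in emColon (log2 difference 4.55, SE 0.80, adjusted p 0.0416). Pld6 was the call nearest to the threshold, and its call was lost without any 1 library, with adjusted p from 0.0907 to 0.216. With the genes held fixed, the Tex19.1 call was likewise lost without any 1 library. Both calls were also lost with a pseudocount of 0.1 and with no filter on low values. Slc25a31, the germ cell ADP/ATP carrier, had 7.88, 65.7 and 24.4 TPM in exColon and 0 in emColon, with an adjusted p of 0.101. Rec8, the meiotic cohesin subunit, had 67.0, 20.1 and 9.53 TPM in exColon and 11.9, 5.14 and 0 TPM in emColon, with an adjusted p of 0.472. Of 30 germline genes listed, 10 passed the filter on low values, 4 were called higher (Rhox5, Trap1a, Mageb16 and Tex19.1) and 0 lower, while 13 did not pass 1 TPM in any library. Of the DNA methylation enzymes 0 of 8 tested were called, where 0.269% of all genes were, Dnmt1 having 54.2, 47.0 and 45.9 TPM in exColon and 62.5, 31.8 and 28.5 TPM in emColon.

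The promoters of Trap1a and Tex19.1 are shown because both genes went from 0 in emColon to clear expression in exColon and because CG dinucleotides are where methylation can occur. Each window runs from 250 bases before to 50 bases after the start site, 5′ to 3′ on the gene's strand, from RefSeq on GRCm38.p6, with every CG in capitals.
Trap1a, chrX:139333433-139333732, + strand: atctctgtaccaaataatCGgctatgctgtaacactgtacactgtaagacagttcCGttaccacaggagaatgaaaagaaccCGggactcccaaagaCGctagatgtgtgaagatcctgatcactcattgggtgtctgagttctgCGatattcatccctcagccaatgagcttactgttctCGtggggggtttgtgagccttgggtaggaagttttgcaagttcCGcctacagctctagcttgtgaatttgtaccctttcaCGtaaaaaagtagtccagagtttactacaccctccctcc
Tex19.1, chr11:121145893-121146192, + strand: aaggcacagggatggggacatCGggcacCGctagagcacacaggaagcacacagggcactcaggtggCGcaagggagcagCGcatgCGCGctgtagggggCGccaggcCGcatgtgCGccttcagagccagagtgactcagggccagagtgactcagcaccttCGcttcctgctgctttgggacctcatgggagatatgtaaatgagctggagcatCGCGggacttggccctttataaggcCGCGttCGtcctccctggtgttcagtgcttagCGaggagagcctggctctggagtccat
The Trap1a window holds 8 CG and the Tex19.1 window 16. Over all 32851 windows of the table the median was 7, with quartiles of 3 and 20. Of the 26 genes called higher, 23 matched a window, and their median was also 7 CG, from 1 (Xlr5c) to 45 (Cdkn2a). The start sites of the Xlr5a, Rhox5 and Xlr5c windows lay 175274, 50234 and 2461 bases from the start of the quantified gene. Those windows may therefore not be the promoters in use. The palindrome CACGTG, read on both strands at once, was found in 2 of these 23 windows (Tfpi and Pld6) and in 7.15% of all windows. Methylation itself was not analysed here.

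Other genes that rose included Sfi1, Phf11d and 2 predicted X-linked genes. Sfi1 (chr11:3131850-3193463, - strand), a centrin-binding protein of the centrosome, had 131, 124 and 99.3 TPM in exColon and 19.8, 6.27 and 13.2 TPM in emColon, 9.02-fold higher on average (log2 difference 3.20, SE 0.50, adjusted p 0.0245). Phf11d, a PHD finger protein, had 25.4, 57.5 and 32.8 TPM in exColon and 0 in emColon (log2 difference 5.22, SE 0.81, adjusted p 0.0245). 3830403N18Rik ranged from 21.8 to 62.3 TPM in exColon and was at 0 in emColon, and 4933402E13Rik ranged from 36.1 to 52.7 TPM against at most 2.87 TPM. In each case the groups stood far apart, and each of these 4 calls was lost without at least 1 exColon library.

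Cdkn2a was the only CDK inhibitor called. The gene (chr4:89274471-89294653, - strand) encodes p16INK4A, which blocks CDK4 and CDK6, and p19ARF, which stabilises p53 by inhibiting MDM2, and gene-level TPM does not separate them. It had 451, 655 and 587 TPM in exColon and 3.90, 7.77 and 0 TPM in emColon (564 ± 104 against 3.89 ± 3.89, SD, n = 3 each). The log2 difference was 7.32 (SE 0.69, 95% interval 5.82 to 8.81, adjusted p 0.000367), and the call held without any 1 library. It was lost with a pseudocount of 0.1 and with no filter on low values. At E9.5 the Cdkn2a gene had 205, 183, 171 and 229 TPM in exHindgut and at most 3.22 TPM in emHindgut. The colon difference exceeded the hindgut difference by 0.87 (SE 0.81, adjusted p 0.67). Its neighbour Cdkn2b had 8.89, 24.1 and 6.15 TPM in exColon and 7.57, 0 and 0 TPM in emColon, with an adjusted p of 0.459. Cdkn2d, another INK4 inhibitor, had 27.2, 28.7 and 34.0 TPM in exColon and 1.95, 4.21 and 25.2 TPM in emColon, with an adjusted p of 0.458. All 7 tested members of the CDK inhibitor and pocket protein list lay above 0, with a median 0.68 above that of all genes. Cbx7, a Polycomb subunit that represses the Cdkn2a locus, had 83.9, 53.04 and 72.4 TPM in exColon and 6.29, 0 and 16.8 TPM in emColon, without overlap but with an adjusted p of 0.189.

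Proliferation genes were described by the same counts. Of 28 genes tested 0 were called, where 0.269% of all genes were, 10 lay above 0 and 18 below it, and the median was -0.32 relative to all genes. At an unadjusted p under 0.05, which 9.90% of all genes reached, 1 was higher and 1 lower. Mki67, the proliferation antigen, had 17.0, 8.28 and 19.8 TPM in exColon and 30.1, 48.6 and 38.6 TPM in emColon (adjusted p 0.46). Ccne2, a cyclin of S phase entry, had 50.2, 29.3 and 31.8 TPM in exColon and 12.4, 13.8 and 16.9 TPM in emColon (adjusted p 0.474). Both genes were separated between the groups, in opposite directions, as were 16.0% of all genes in either direction.

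Known p53 targets were compared to see whether the extraembryonic cells of the E13.5 colon, which lack p53 by label, differ from embryonic cells in that programme. In the colon 0 of 29 tested targets were called in either direction, a share near the 0.269% of all genes called there, and their median lay 0.15 above that of all genes. In all 18 lay above 0 and 11 below it, and at an unadjusted p under 0.05 there were 0 higher and 2 lower, where 6.99% and 2.91% of all genes passed. In the E9.5 hindgut, where the extraembryonic cells are labelled WT, 13 of 31 tested targets were called higher in exHindgut and 0 lower, against 1.37% of all genes called higher there. The hindgut fit called 3.07% of all genes, so the counts of the 2 fits are not set against each other, and the colon difference was tested against the hindgut difference gene by gene. Of the targets, Ccng1, Phlda3, Trp53inp1 and Perp were chosen by the study on the E9.5 samples, so their E9.5 direction is not independent evidence.

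Ccng1 (chr11:40748552-40755311, - strand), cyclin G1, had 31.2, 23.2 and 9.95 TPM in exColon and 21.4, 16.8 and 30.3 TPM in emColon, with overlapping groups. At E9.5 it had 158, 139, 90.2 and 155 TPM in exHindgut and 22.7, 21.3, 25.7 and 22.9 TPM in emHindgut, with no overlap. emColon and emHindgut thus lay at like levels, and the 4 exHindgut libraries stood above all others. The log2 difference was -0.18 in the colon (SE 0.62) and 2.47 in the hindgut (SE 0.18), and these differed by -2.65 (SE 0.49, adjusted p 0.02). Without the third exColon library the colon difference was 0.268, and without the third emColon library it was 0.034.

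Phlda3, an inhibitor of AKT signalling at the membrane, had 20.8, 0 and 11.1 TPM in exColon and 50.9, 26.8 and 29.4 TPM in emColon. At E9.5 it had 147, 91.2, 129.5 and 243 TPM in exHindgut and 17.8 to 28.1 TPM in emHindgut. The exColon libraries were below emColon and the exHindgut libraries above emHindgut, without overlap in either tissue. The colon minus hindgut difference was -5.18 (SE 1.02, adjusted p 0.0289). In the small intestine, Phlda3 fell by 4.60 on the log2 scale (SE 0.88, adjusted p 0.0376), with 0, 0 and 9.77 TPM in exSI and 58.2, 67.1 and 36.8 TPM in emSI, and it was the sole target called there.

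Bax, the pore-forming apoptosis effector (chr7:45461697-45466898, - strand), had 373, 257 and 338 TPM in exColon and 393, 653 and 473 TPM in emColon. At E9.5 it had 725, 715, 683 and 878 TPM in exHindgut and 449, 480.5, 454 and 462 TPM in emHindgut. The order of the groups was opposite in colon and hindgut, and the difference of the differences was -1.33 (SE 0.23, adjusted p 0.0159). Eda2r, a death-domain receptor of the TNF family, was at 0 in all exColon libraries and at most 0.0358 TPM in emColon, whereas exHindgut had 58.5, 91.1, 39.8 and 67.6 TPM and emHindgut 5.85 to 10.1 TPM. Its colon minus hindgut difference of -2.96 (SE 0.61, adjusted p 0.0365) therefore comes from a gene with close to no transcript in either colon group. The death receptor Fas was at 0 in exColon and had 1.33, 0 and 6.47 TPM in emColon, while it had 1.65 to 7.46 TPM in exHindgut and 0 in emHindgut. The means of the groups were thus in opposite order in the tissues, at low levels, with 1 emColon library at the level of exHindgut (colon minus hindgut -3.69, SE 0.81, adjusted p 0.0478).

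These 5 targets were the ones called in the test of colon against hindgut, out of 33 tested. In all 5 the log2 difference was more negative in the colon, a direction in which 0.261% of all genes were called. Leaving out 1 library gave between 1 and 6 such targets, and the Bax call held without any 1 library. Ccng1 and Phlda3 were among the targets that the study chose on the E9.5 samples. A negative colon minus hindgut value was therefore favoured for both in advance, and they are not independent members of the count. Trp53inp1, a stress-induced autophagy protein, had 12.4, 8.43 and 11.9 TPM in exColon and 9.27, 6.20 and 15.4 TPM in emColon. Perp, a desmosomal apoptosis effector, had 61.0, 8.38 and 17.4 TPM in exColon and 10.5, 33.4 and 20.7 TPM in emColon. Neither was called different between colon and hindgut (adjusted p 0.123 and 0.439), and the sign of both in the colon changed under quantile normalization and median-ratio rescaling.

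Other p53 targets were expressed in both colon groups. Cdkn1a, the p21 inhibitor of cyclin-dependent kinases, had 92.4, 83.9 and 119 TPM in exColon and 106, 0.749 and 45.9 TPM in emColon, an adjusted p of 0.543. In the hindgut it had 489.6 to 701 TPM in exHindgut and 199 to 312 TPM in emHindgut. Mdm2, the ubiquitin ligase of p53, had 34.8, 24.0 and 42.5 TPM in exColon and 14.8, 11.5 and 40.6 TPM in emColon, an adjusted p of 0.726. Cdkn1a and Mdm2 were thus present in exColon at levels not called different from emColon. Stage, genotype, pooling of embryos and sex composition differ between the hindgut and the colon comparison, and their parts in these differences cannot be told apart.

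The promoters of Ccng1 and Bax are printed because both carry a match to the p53 decamer, the element that a pair of p53 subunits binds. Capitals mark the match, and the element is a palindrome, so both strands are searched together.
Ccng1, chr11:40755237-40755536, - strand: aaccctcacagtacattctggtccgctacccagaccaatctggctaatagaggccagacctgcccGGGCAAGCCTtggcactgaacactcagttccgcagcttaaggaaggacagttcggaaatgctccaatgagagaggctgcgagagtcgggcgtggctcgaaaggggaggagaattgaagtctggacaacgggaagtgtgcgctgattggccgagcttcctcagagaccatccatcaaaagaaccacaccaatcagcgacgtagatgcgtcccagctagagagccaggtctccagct
Bax, chr7:45466849-45467148, - strand: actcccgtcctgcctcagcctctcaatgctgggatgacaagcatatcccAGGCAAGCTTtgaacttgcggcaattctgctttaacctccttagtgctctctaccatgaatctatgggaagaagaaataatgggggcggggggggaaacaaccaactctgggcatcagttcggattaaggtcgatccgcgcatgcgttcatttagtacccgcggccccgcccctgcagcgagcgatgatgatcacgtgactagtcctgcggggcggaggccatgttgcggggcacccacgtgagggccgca
The match starts at position -185 from the start site in Ccng1 and at -201 in Bax. Of the 34 targets 25 matched a window and 7 held a decamer match (28%), against 8.36% of all windows. The share was 17.4% for the genes called higher in exColon (4 of 23) and 27.3% for the called Xlr, Rhox and Mage genes (3 of 11). The 3 family matches are the same decamer in the near-identical windows of Xlr4a, Xlr4b and Xlr4c, and Itih2 adds the other match among the 23. These copies are not independent, so neither share is read as an excess. A match describes the letters in the window and not binding.

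**Figure D3:**
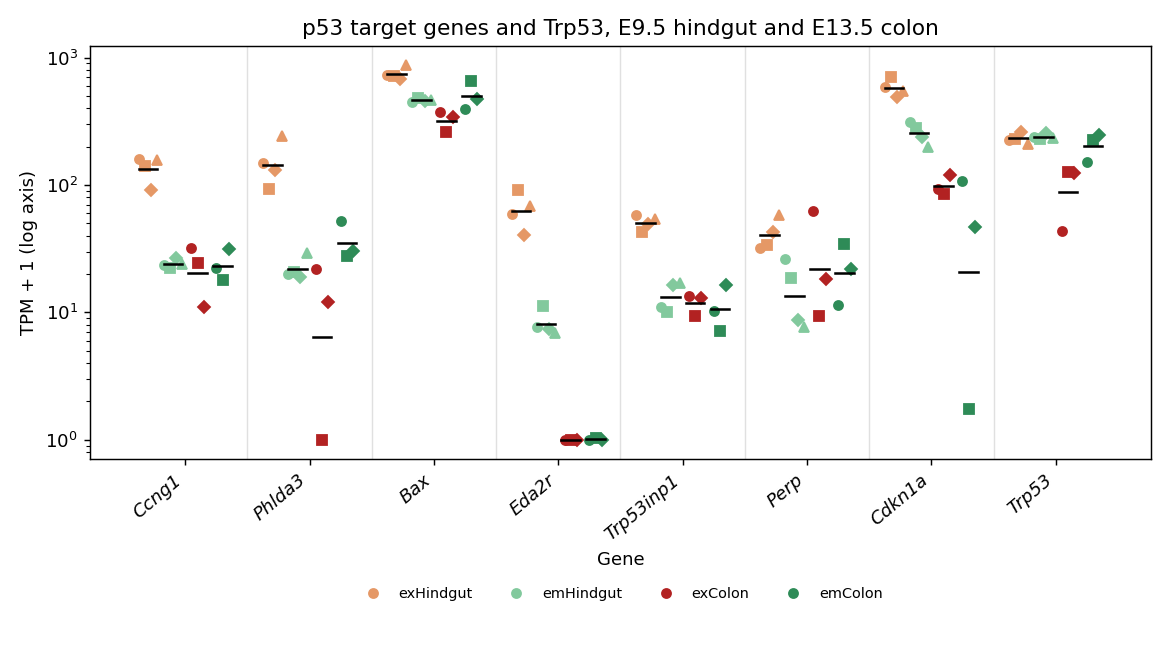
TPM + 1 on a log axis for 7 p53 targets and Trp53 in exHindgut (orange, n = 4), emHindgut (light green, n = 4), exColon (red, n = 3) and emColon (green, n = 3), with bars at the mean of the log values. Ccng1, Phlda3, Bax and Eda2r are highest in exHindgut, and in exColon they overlap emColon, lie below it or are at 0.

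Of the 10 autosomal genes that rose, 5 encode secreted proteins, a grouping made after the calls were seen, with no list or test behind it. Afp, alpha-fetoprotein (chr5:90490737-90508907, + strand), had 1374, 2761 and 3462 TPM in exColon and 517, 465 and 661 TPM in emColon, 4.62-fold higher on average (log2 difference 2.12, SE 0.29, adjusted p 0.0109). Ambp, the precursor of alpha-1-microglobulin and bikunin, had 685, 1136 and 1171 TPM in exColon and 297, 399 and 393 TPM in emColon, 2.75-fold higher (log2 difference 1.43, SE 0.24, adjusted p 0.0365). Both secreted proteins were thus abundant in emColon too, and every exColon library lay above every emColon library. Tfpi, the inhibitor of tissue factor in coagulation (chr2:84432855-84476775, - strand), had 113, 185 and 277 TPM in exColon and 2.13, 18.6 and 18.1 TPM in emColon, 14.8-fold higher (log2 difference 4.099, SE 0.69, adjusted p 0.0365). Itih2, a hyaluronan-binding serum protein, had 49.3, 39.8 and 43.5 TPM in exColon and 0, 0 and 2.36 TPM in emColon (adjusted p 0.0365). Cpb2, the carboxypeptidase that slows clot lysis, had 26.1, 17.9 and 45.2 TPM in exColon and 0 in emColon (adjusted p 0.0365). As background, bikunin, TFPI and the ITIH heavy chains take part in restraining proteases or in building hyaluronan matrix. All 5 calls were lost without the second exColon library (adjusted p 0.0998 to 0.202) and without the third (0.0535 to 0.268). With median-ratio rescaling the Ambp difference was 1.24 and no longer called (adjusted p 0.121).

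Levels of these genes varied between stages and tissues. Tfpi was also higher in the hindgut, with 103 to 121 TPM in exHindgut and 7.35 to 27.1 TPM in emHindgut. Itih2 was not, with 2.92 to 10.9 TPM in exHindgut and 1.32 to 13.3 TPM in emHindgut, and its colon minus hindgut difference was 4.64 (SE 0.92, adjusted p 0.0289). Cpb2 was at or below 1.88 TPM in every hindgut library, and its colon minus hindgut difference was 5.04 (SE 0.73, adjusted p 0.00396). Ambp had 9.40 to 57.1 TPM in exHindgut and 14.7 to 32.7 TPM in emHindgut, so the groups overlapped at E9.5. In the small intestine Ambp had 1382, 1700 and 1750 TPM in exSI and 350.1, 385 and 561 TPM in emSI (adjusted p 0.000416), and Itih2 did not pass 1.05 TPM.

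Of 16 tested visceral and yolk sac endoderm genes, Afp was the 1 called, with a list median 0.27 above that of all genes. Amn, the amnionless subunit of the cubilin receptor, had 54.8, 38.5 and 80.2 TPM in exColon and 9.96, 13.6 and 0.616 TPM in emColon (adjusted p 0.24). Selenop, the selenium carrier, had 49.2, 124 and 227 TPM in exColon and 24.0, 48.0 and 10.5 TPM in emColon (adjusted p 0.273). Fgb, the fibrinogen beta chain, had 28.4, 47.4 and 44.9 TPM in exColon and 7.74, 2.22 and 16.7 TPM in emColon (adjusted p 0.334). These 3 genes had non-overlapping groups without passing the adjusted threshold. Of all genes tested, 11.2% had non-overlapping groups with exColon higher. The retinol carrier Rbp4, by contrast, had 844, 1650 and 2485 TPM in exColon and 1126, 2394 and 2838 TPM in emColon, with overlapping groups. At an unadjusted p under 0.05, 5 members were higher and 1 lower, where 6.99% and 2.91% of all genes passed.

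Gut epithelial genes gave a count of calls near the background. Of 21 tested 0 were called, where 0.269% of all genes were. Of the 21, 7 lay above 0 and 14 below it, where 62.0% of all genes lay above 0. The median was -0.56 relative to all genes. Cldn7, a tight junction protein, had 429, 445 and 468 TPM in exColon and 579, 853 and 724 TPM in emColon (adjusted p 0.319). The keratins Krt8 and Krt19 were lower on average, Krt8 having 799.6, 1049 and 613 TPM in exColon and 1166, 1525 and 988 TPM in emColon (adjusted p 0.434). Genes of secretory and absorptive cells included Tff3, the goblet cell trefoil peptide, with 304, 667 and 664 TPM in exColon and 236, 215 and 146 TPM in emColon (adjusted p 0.164). Rbp2, the intestinal retinol-binding protein, had 52.8, 89.3 and 94.1 TPM in exColon and 17.6, 23.1 and 34.1 TPM in emColon (adjusted p 0.263). Both had non-overlapping groups, as did 11.2% of all genes with exColon higher. Sox2, a foregut and stomach factor, had 37.1, 4.93 and 2.13 TPM in exColon and 0 in emColon (adjusted p 0.338), so 1 library carried most of the signal. None of the 4 tested colon region genes and none of the 4 tested small intestine and stomach region genes was called. Both counts are near the 0.269% of all genes called.

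**Figure D4:**
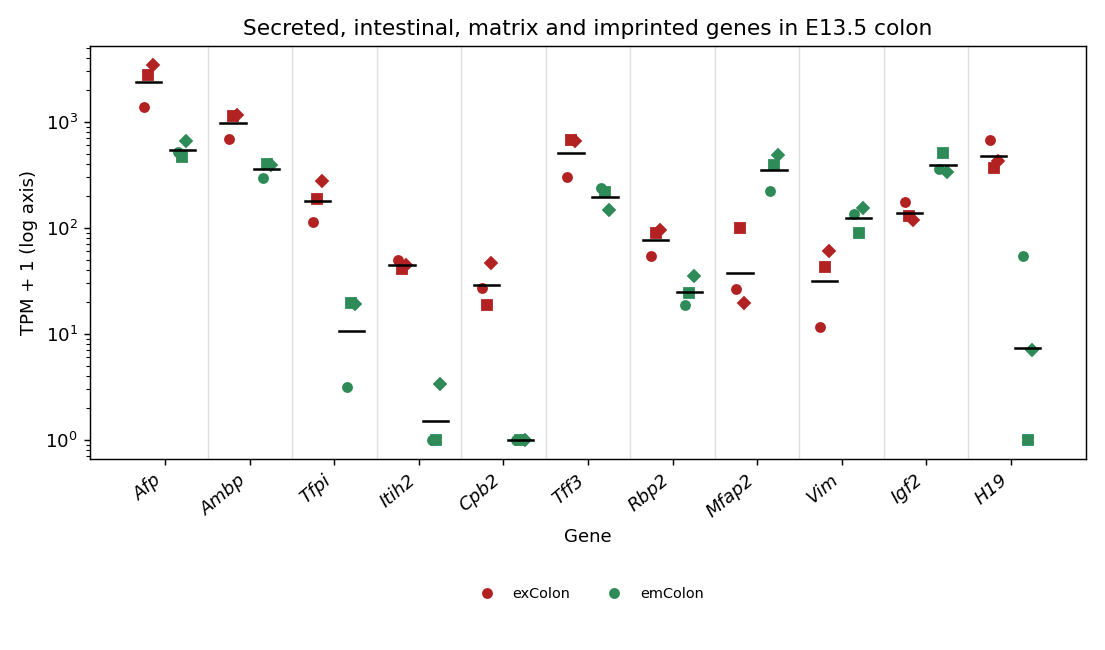
TPM + 1 on a log axis for secreted, intestinal, matrix and imprinted genes in the 3 exColon (red) and 3 emColon (green) libraries, with bars at the mean of the log values. Afp, Ambp, Tfpi, Itih2 and Cpb2 lie higher in exColon in every library, and Mfap2, Vim and Igf2 lie lower.

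Besides EGFP, 3 genes fell in exColon. Mfap2 (chr4:141010418-141015984, + strand), a microfibril glycoprotein of the elastic matrix, had 25.5, 98.2 and 18.5 TPM in exColon and 219.9, 392 and 487 TPM in emColon, 7.73-fold lower on average (log2 difference -3.23, SE 0.55, adjusted p 0.0365). It was also lower at E9.5, with 0 to 11.6 TPM in exHindgut and 212 to 289.9 TPM in emHindgut, and in the small intestine, with 8.67, 0 and 0 TPM in exSI. Of the 19 tested matrix genes Mfap2 was the 1 called, and the mesenchymal sum given above moved with it. The part of other cell types in the Mfap2 difference was not tested. Tnni1, slow skeletal troponin I (chr1:135779434-135810989, + strand), had 0, 2.63 and 0 TPM in exColon and 45.0, 57.8 and 34.2 TPM in emColon (log2 difference -4.89, SE 0.85, adjusted p 0.0386). Cbln2, a secreted cerebellin that organises synapses, was at 0 in exColon and had 20.7, 25.1 and 24.0 TPM in emColon (log2 difference -4.60, SE 0.80, adjusted p 0.0386). The Tnni1 and Cbln2 calls were each lost without any 1 library, with adjusted p from 0.0677 to 0.174 and from 0.121 to 0.189. With the genes held fixed, the Mfap2 call was lost without each single library except exColon replicate 2. The Mfap2 call was lost in 13 of 23 alternatives, among them the fit of all 12 E13.5 libraries and a pseudocount of 0.1.

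Imprinted genes of the Igf2 domain lay just outside or inside the threshold. Igf2, the paternally expressed growth factor (chr7:142650766-142666816, - strand), had 176, 128 and 117 TPM in exColon and 358, 504 and 332 TPM in emColon. The difference was -1.49 (SE 0.27, adjusted p 0.0512), the gene nearest to the threshold on its far side, and 6 of the alternatives called it. H19, the maternally expressed non-coding RNA next to Igf2 (chr7:142575529-142578143, - strand), had 676, 365 and 429.9 TPM in exColon and 53.5, 0 and 6.10 TPM in emColon (log2 difference 6.02, SE 1.07, adjusted p 0.0473 in the fit over all gene types). The pair of neighbours differed in opposite directions, in every library. Mest, another paternally expressed gene, had 9.79, 10.5 and 18.1 TPM in exColon and 45.1, 42.0 and 170.3 TPM in emColon (adjusted p 0.22). Of 13 paternally expressed genes tested 0 were called, 9 lay above 0 and 4 below it. Of 7 maternally expressed protein-coding genes 0 were called. Over all genes tested, 0.269% were called and 62.0% lay above 0.

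The E9.5 hindgut libraries, which share no sample with the colon, show how far the differences at E9.5 recurred at E13.5. Of the 378 genes called at E9.5 (3.07% of 12318), 169 were higher and 209 lower in exHindgut. Of the 169, 125 could be tested in the colon, 103 had the same sign (82.4%), and 21 were called. Their median colon difference was 1.24, against 1.72 for the same genes at E9.5. Of the 25 X-linked genes among the 169, 18 could be tested and 14 were called in the colon, with a median of 5.79 over the 18. The other 7 did not pass the filter in the colon, 1 of them at 0 in all 6 libraries. Of all 169, 44 did not pass it, 9 of them at 0. Genes at 0 in emColon passed only where all 3 exColon libraries were above 1 TPM. How much difference the tested higher genes kept was therefore partly set by the filter. Of the 209 lower genes (1.70%) 131 could be tested, 88 had the same sign (67.2%) and 2 were called, with a median of -0.56 against -1.53 at E9.5. The medians of this paragraph are not relative to that of all genes, which was 0.227 in the colon and -0.0199 in the hindgut. In the colon 62.0% of all genes lay above 0, so the same-sign shares of higher and lower genes have unlike backgrounds and are not compared. A further 78 of the 209 did not pass the filter in the colon, 19 of them at 0 in all 6 libraries. Conversely, 28 of the 30 colon calls were tested at E9.5, 26 had the same sign and 23 were called.

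**Figure D5:**
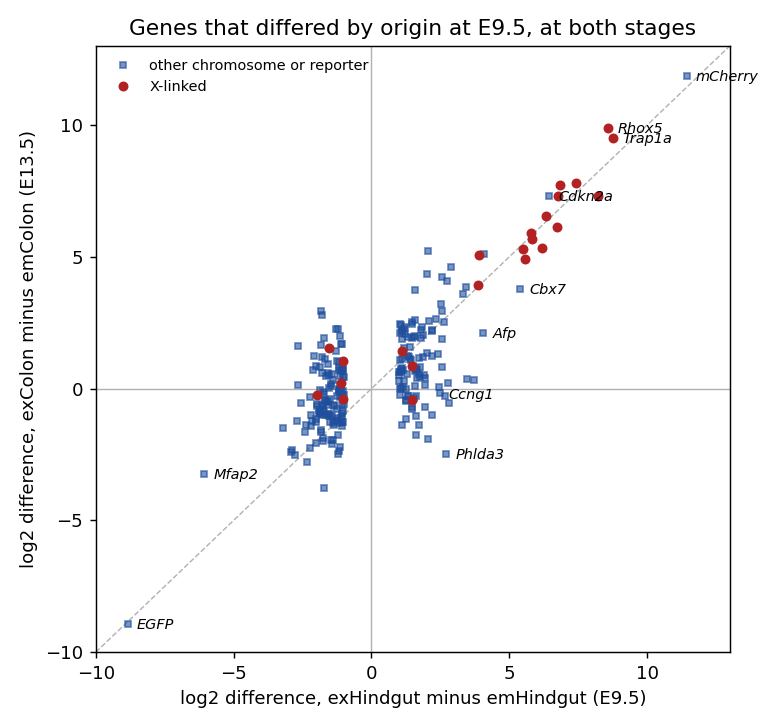
Log2 difference between extraembryonic and embryonic cells at E9.5 (horizontal axis) and at E13.5 in the colon (vertical axis) for the 256 genes called at E9.5 and tested in both, X-linked genes as red circles and others as blue squares. Most X-linked genes that were higher at E9.5 lie near the dashed line of equal differences, and many genes below 0 at E9.5 lie nearer to 0 in the colon.

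Genes of position and adhesion illustrate differences that were no longer measurable. Cdx4, an early posterior homeobox gene, had 451, 509, 437 and 526 TPM in emHindgut and 16.2, 0, 0 and 0.0797 TPM in exHindgut, and it was at 0 in all 6 colon libraries. Hoxb1 had 45.3 to 65.5 TPM in emHindgut and at most 2.05 TPM in exHindgut, and was likewise at 0 in the colon. Cdh11, a mesenchymal cadherin, had 32.8 to 47.6 TPM in emHindgut and at most 2.79 TPM in exHindgut, and did not pass 0.383 TPM in the colon. For these 3 genes the colon minus hindgut differences of 7.85, 5.08 and 4.02 (adjusted p 0.00396, 0.00396 and 0.00983) thus rest on values at or near 0 in both colon groups.

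Among Hox genes still expressed in the colon, 0 of 17 tested were called, where 0.269% of all genes were. Of the 17, 13 lay below 0, and the median was -1.06 relative to all genes, of which 62.0% lay above 0. Hoxb13, the most posterior gene of its cluster, had 0, 12.9 and 0 TPM in exColon and 24.0, 22.4 and 24.7 TPM in emColon (adjusted p 0.337). Hoxb9 had 3.39, 3.05 and 9.77 TPM in exColon and 20.4, 24.0 and 47.9 TPM in emColon (adjusted p 0.337). Hoxb6 had 0, 0 and 6.27 TPM in exColon and 7.05, 23.2 and 34.1 TPM in emColon (adjusted p 0.334). These 3 were the Hox genes with non-overlapping groups and an unadjusted p under 0.05, all lower in exColon. Of all genes tested, 4.77% were lower without overlap and 2.91% were lower at that p. Axon guidance and neural adhesion genes, 4 of 33 of which were called lower at E9.5, gave 0 calls of 26 tested in the colon, a count near the background. At E9.5 1.70% of all genes were called lower, and in the colon 0.269% were called in either direction. The list had a median 0.28 above that of all genes. Epha4, an ephrin receptor, had 6.59, 21.0 and 13.3 TPM in exColon and 3.04, 0 and 0.512 TPM in emColon (adjusted p 0.337).

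In the test of the colon difference against the hindgut difference, 103 of 13407 genes were called (0.768%), 68 (0.507%) with a higher and 35 with a lower value in the colon. This split depended on scaling, with 40 higher of 75 after quantile normalization and 42 higher of 84 with median-ratio size factors. Pld6, called in the colon, had like levels in both hindgut groups, with 11.3, 4.99, 8.11 and 5.27 TPM in exHindgut and 10.8, 3.95, 11.4 and 6.75 TPM in emHindgut (colon minus hindgut 4.65, SE 0.67, adjusted p 0.00396). Meis2, a homeobox cofactor of Hox proteins, had 22.5, 9.80 and 15.4 TPM in exColon and at most 0.855 TPM in emColon, and its colon minus hindgut difference was 4.28 (adjusted p 0.00396). Of 19 tested Xlr, Rhox and Mage genes 0 were called as different between the stages.

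The small intestine offers a second E13.5 tissue with the same cell origins, from libraries that may come from the same embryos. There 84 of 11376 genes were called (0.738%), and 58 of them (0.510%) were higher in exSI. Of the 28 colon calls tested there, 27 had the same sign and 22 were called. Rhox5, for example, had 1186, 977 and 1548 TPM in exSI and 0 in emSI, and Cdkn2a had 885, 1005 and 723 TPM in exSI and 10.1, 93.4 and 0.892 TPM in emSI. Of 12483 genes tested for a colon difference unlike the small intestine difference, 2 were called (0.0160%). Tnni1 had 8.86, 25.5 and 21.0 TPM in exSI and 4.98, 3.42 and 4.98 TPM in emSI, so that the order was opposite to that in the colon (colon minus small intestine -6.62, SE 0.99, adjusted p 0.0394). Serpinb1a, an inhibitor of granule proteases, had 67.1, 173 and 66.2 TPM in exColon and 257, 272 and 195 TPM in emColon, but 121, 239 and 149.7 TPM in exSI and 41.5, 30.7 and 25.6 TPM in emSI (colon minus small intestine -3.68, SE 0.54, adjusted p 0.0394). In Serpinb1a the emColon libraries stood high and the emSI libraries low. Both calls were lost without most single libraries, with Tnni1 at an adjusted p of up to 0.184.

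Ribosomal protein genes, a list chosen after their values were seen, lay lower in exColon as a set. Of 83 tested, 75 lay below 0, and the median was -0.54 relative to all genes (-0.31 before that). Non-overlapping groups with exColon lower were seen in 39, where 4.77% of all genes had them. None passed both thresholds. Rpl26, a large subunit protein, had 1603, 1530 and 1739 TPM in exColon and 3017, 2996 and 2877 TPM in emColon, with an adjusted p of 0.028 and a difference of -0.87 that missed the fold threshold. The set took 15.4, 14.4 and 11.9% of all TPM in exColon and 17.96, 17.5 and 16.3% in emColon. Because TPM values sum to a constant, a lower share of such abundant genes moves with the raised median of other genes, and the part of this in the results was not tested.

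Whole profiles of the colon groups overlapped in their likeness. Over 14134 genes the Pearson correlation of log values averaged 0.863 between exColon libraries (0.856 to 0.876), 0.848 between emColon libraries (0.835 to 0.873) and 0.839 between exColon and emColon (0.806 to 0.860), a description across genes that share a library and are not independent. exColon correlated with exSI at 0.855, with emSI at 0.851, with exHindgut at 0.837, with emHindgut at 0.822 and with yolk sac endoderm at 0.773. The ranges over library pairs of the E13.5 groups overlapped. Libraries were sparse. Of 7842 genes above 10 TPM in at least 2 exColon libraries, 115 were listed at 0 in the third (1.47%), and in emColon 157 of 7098 (2.21%), against 5 or fewer genes at E9.5 by the same count over 3 libraries of each hindgut group.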

How the data were processed

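Per the labels and the study's methods, the authors sorted EPCAM+ cells by colour, made poly(A) low-input libraries, trimmed paired-end reads with cutadapt 4.1, aligned them with STAR 2.7.9a to mm10 with the GFP and mCherry sequences added, and quantified genes with StringTie 2.0.6. The deposited values are TPM and FPKM per gene of the GENCODE annotation, and no count table was used, so depth per library is unknown and no interval for counting error is given.

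Here TPM was taken as log2(TPM + 1) and fitted with limma 3.58.1 (R 4.3.3) by group, with eBayes and trend, two-sided, Benjamini-Hochberg adjustment over all genes tested. Genes were protein-coding, not Y-linked, and above 1 TPM in at least 3 of the 6 colon libraries. Genes were called at an adjusted p under 0.05 with a log2 difference of more than 1 in either direction. Tests of 1 difference against another used 4 group means and no fold threshold. Folds on this scale understate changes of low genes. Genes were named by a rule covering the reporters, Trp53, Xist, Rhox5, Trap1a, Cdkn2a, the study's p53 targets, called genes, up to 8 members of each list and up to 8 called genes of each interaction. The members, the lists and this rule were chosen with earlier results of these data known. The small intestine comparison, the ribosomal list, the list counts under each alternative and the leave-one-out fits with genes held fixed were added after the data were seen. P-values measure the spread between these libraries, each from individual embryos. Deviations of same-numbered exColon and emColon libraries correlated at 0.0278 or less, too weakly to pair them, so no block was used. The fits were tested on simulated data. Promoter windows came from RefSeq (GRCm38.p6), matched by symbol.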

Additional observations from a re-analysis of the deposited data

Results flagged for a closer look

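The difference between extraembryonic and embryonic cells was not the same in colon and small intestine for Tnni1 (colon minus small intestine -6.62 on the log2 scale) and Serpinb1a (-3.68), both at a limma adjusted p of 0.0394.

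The difference was more negative in the E13.5 colon than in the E9.5 hindgut for 5 p53 targets. These were Ccng1 (-2.65), Phlda3 (-5.18), Bax (-1.33), Eda2r (-2.96) and Fas (-3.69). The difference was also more negative in the colon for Tnni1 (-5.61) and Cbln2 (-4.30). It was more positive in the colon for Hoxb1 (5.08), Acot7 (3.71), Meis2 (4.28), Rwdd3 (5.36), Cdx4 (7.85), Pld6 (4.65) and Cdh11 (4.02). Acot7, an acyl-CoA thioesterase, had 16.8, 13.9 and 6.45 TPM in exColon and 0 in emColon, and Rwdd3, an enhancer of SUMO conjugation, had 14.8, 18.9 and 22.0 TPM against at most 0.307 TPM. Stage, genotype and pooling of embryos differ between these comparisons and cannot be told apart.

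Cdx4 stood at 16.2 TPM in the first exHindgut library, far from the 0, 0 and 0.0797 TPM of the others. The criterion that flagged this gap flags about 1 in 20 groups of normally distributed values by chance. How often it flags groups with values near 0 was not tested.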

How the results depend on the processing

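Of the 90 gene results followed, 49 kept their direction and side of the threshold in every alternative run. The 30 colon calls became 10 with a pseudocount of 0.1, 8 with no filter on low values and 83 with all 12 E13.5 libraries in 1 fit. Leaving out 1 library gave 2 to 21, and with the genes held fixed 14, 12 and 12 (exColon replicates 1, 2 and 3) and 21, 20 and 19 (emColon). When an exColon library left, the filter of 3 libraries removed genes at 0 in emColon. Higher Xlr, Rhox and Mage genes, 12 in all, became 7 with a pseudocount of 0.1, 5 with no filter, and 0 to 11 without 1 library (6, 7 and 6 with genes held fixed and exColon replicates 1, 2 and 3 left out). p53 targets stayed at 0 calls in the colon under every alternative run. Their 5 more negative colon differences became 3 with a pseudocount of 0.1, 3 with no filter, 3 with eBayes without trend, and 1 to 6 without 1 library. The 2 colon minus small intestine calls became 0 with a pseudocount of 0.1, 14 with no filter, 6 with eBayes without trend and 0 to 3 without 1 library. The 103 colon minus hindgut calls ran from 39 to 308 without 1 library, and the 378 exHindgut calls were 223 with no filter and 237 to 311 without 1 library. In other cases the cause was not tested.

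In the colon the sign reversed for Trp53inp1 (-0.23 after quantile normalization, -0.029 with median-ratio size factors) and Perp (-0.12 and -0.077). Without 1 library Ccng1 ran from -0.51 to 0.27 (0.034 without emColon replicate 3), Trp53inp1 from -0.14 to 0.46 and Perp from -0.64 to 0.72 (-0.31 without emColon replicate 1). Trp53 in exHindgut ran from -0.10 to 0.000124.

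The replicate block gave 33 calls with an estimated correlation (30 shared) and 33 as a fixed term (24 shared). Same-numbered exColon and emColon libraries deviated with correlations of 0.0150, 0.0278 and 0.0151, each the highest for its number. In simulated colon data, 0, 28, 26 and 54% of genes changed by 1, 2, 3 and 4 (log2) were called. Differences of up to 3 were therefore mostly missed.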

Other observations

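Id1, Id3 and Mt1, none of them called, are given for their values. Id1 and Id3, inhibitors of helix-loop-helix factors and direct BMP targets, had 314, 197 and 36.5 TPM (Id1) and 226, 274 and 8.89 TPM (Id3) in exColon. In emColon Id1 had 29.1, 0 and 0 TPM and Id3 was at 0. The third exColon library was much lower than the other two for both genes, and the limma adjusted p was 0.158 for Id1 and 0.055 for Id3. Without that library Id3 had a log2 difference of 7.97 and an adjusted p of 0.00834. The ligand Bmp4 had 2.43, 0 and 0 TPM in exColon and 6.29, 6.11 and 18.7 TPM in emColon (adjusted p 0.357). Of 25 tested Wnt, Hedgehog, BMP and Notch genes 0 were called, where 0.269% of all genes were.

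Mt1, a metallothionein that binds zinc and copper, had 401, 129 and 563 TPM in exColon and 14.6, 80.2 and 8.65 TPM in emColon (adjusted p 0.0842). Hebp1, a haem-binding protein, had 36.2, 17.97 and 17.2 TPM in exColon and 95.1, 184 and 106 TPM in emColon (adjusted p 0.065). Nepn, a leucine-rich proteoglycan, had 18.7, 34.9 and 40.9 TPM in exColon and 0, 0 and 1.29 TPM in emColon (adjusted p 0.0587). These 3 genes had non-overlapping groups, as did 16.0% of all genes tested, and lay just outside the adjusted threshold. Of 11 tested Myc network genes 0 were called, where 0.269% of all genes were. Mxd3, an antagonist of Myc, had 30.1, 16.2 and 7.39 TPM in exColon and 0 in emColon (adjusted p 0.122).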
